A study of Mus musculus with 6 samples.

Results

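The libraries described here were the 3 vehicle libraries of a mouse series of 6, chosen by their treatment label alone, and they were described by the level of each gene with no contrast to treated cells. The series compared T cells exposed in culture to neutrophil extracellular traps, webs of DNA and protein that neutrophils release, with T cells given vehicle, by bulk RNA sequencing. The vehicle cells were naive CD4+ T cells taken from C57BL/6 mouse spleen. Per the labels, they had spent 72 h in U-bottom wells with CD3/CD28 beads, IL-2, an antibody against interferon-gamma, another against IL-4, and vehicle. The treated libraries shared all of these conditions except the vehicle, so the bead, cytokine and antibody exposure was common to every library and no resting cells were analysed here. The labels do not say whether replicates 1, 2 and 3 came from separate mice or cultures, so the spread given below may be technical. The sex and age of the mice, the purity of the sort and the identity of the vehicle are not stated in the sources used here.

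Naive CD4 T cells leave the resting state when the T cell receptor and CD28 are engaged together, and they then grow, divide and display the high-affinity IL-2 receptor. Which helper lineage follows depends on the cytokines around the cell: interferon-gamma and IL-12 favour Th1 cells, IL-4 favours Th2 cells, IL-6 with TGF-beta favours Th17 cells, and TGF-beta with IL-2 favours regulatory T cells. Blocking interferon-gamma and IL-4 in culture is a common way to hold back the first pair of these fates.

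The libraries held 18655997, 15657622 and 16086211 reads in genes, in the order of replicates 1 to 3. Levels are given as the FPKM deposited by the authors, reads scaled to gene length and to the reads of the library, as the mean ± SD of n = 3 libraries unless each library is given. A gene was called expressed at a mean of at least 1 FPKM. By that rule 12650 of 54532 annotated genes were expressed, or 23.2%, and 10703 of 22033 protein-coding nuclear genes, or 48.6%. These are the shares against which the counts of list members below are read. The median over all protein-coding nuclear genes was 0.715 FPKM, and over those expressed it was 22.6 FPKM. In the 3 libraries together 31728 genes had no read, for which the floor of 3 counts is 0.0595 CPM (counts scaled to a library's total). Protein-coding genes took 98.1% ± 0.108 of reads, and long intergenic noncoding RNAs took 0.462% ± 0.0345.

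A limit of the FPKM scale bears on every comparison between genes. The length that the authors divided by was recovered from reads and FPKM for 11721 genes, and for 95% of them it equalled, within 1%, the mean length of all transcripts annotated for the gene in GENCODE M21. A gene with many short annotated fragments therefore has a high FPKM for its reads. Levels were recomputed with the length of the principal annotated transcript, which lowered the median expressed gene to 0.584 of its FPKM. Relative to that shift, 6.41% of expressed protein-coding nuclear genes moved by more than 2 times in either direction. Of the 100 most abundant genes on each scale, 85 were shared. Differences among libraries for 1 gene do not depend on the length.

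The 5 markers of the cells were all expressed. Cd4, the coreceptor that defines the lineage (ENSMUSG00000023274, GRCm38 chromosome 6, 124864692 to 124888221), stood at 679, 728 and 650 FPKM in replicates 1, 2 and 3, which placed it at rank 117 among protein-coding nuclear genes. Cd3e, a signalling chain of the T cell receptor complex (ENSMUSG00000032093, chromosome 9, 44998740 to 45009627), stood at 325, 365 and 282 FPKM, rank 257. Il2ra, the chain that gives the IL-2 receptor its high affinity (ENSMUSG00000026770, chromosome 2, 11642807 to 11693193), stood at 491, 493 and 625 FPKM, rank 154. Replicate 3 had the highest Il2ra and the lowest Cd3e. Foxp3, which defines regulatory T cells (X chromosome, 7579676 to 7595243, ENSMUSG00000039521), stood at 27.5, 33.9 and 41.6 FPKM. Gata3, the Th2 factor that all T cells need during development (ENSMUSG00000015619, chromosome 2, 9857078 to 9890034), stood at 94.9, 114 and 86.8 FPKM.

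The order of Gata3 and Foxp3 turned with the length used. On the deposited scale Gata3 was above Foxp3 in each library, at 98.6 ± 14.1 against 34.3 ± 7.07 FPKM, a log2 ratio of 1.52. The length behind the FPKM was 914 bases for Gata3 and 3706 bases for Foxp3. With principal transcripts of 3215 and 3834 bases the mean levels were 28 ± 4.0 and 33.2 ± 6.83 on the same scale, a log2 ratio of -0.24. Gata3 had 1618, 1634 and 1276 reads and Foxp3 had 1903, 1965 and 2482 reads. Which of these factors was more abundant per transcript is therefore not settled by these files.

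The most abundant transcripts encoded the machinery of protein synthesis, the actin cytoskeleton, glycolysis and chaperones. The highest protein-coding nuclear gene was Eef1a1, the factor that brings aminoacyl-tRNA to the ribosome, at 8589, 9140 and 8065 FPKM. It was followed by Actb at 4586 ± 551 FPKM, Rplp0 of the ribosomal stalk at 4220 ± 210 FPKM, Eef2, the translocation factor, at 4203 ± 69.5 FPKM, and Gapdh of glycolysis at 3855 ± 184 FPKM. Actb was higher in replicate 3, at 5222 FPKM, than in replicates 1 and 2, at 4277 and 4259 FPKM. Next came Tpt1 at 3383 FPKM, the actin-binding thymosins Tmsb4x at 2890 FPKM and Tmsb10 at 2841 FPKM, and Ptma at 2644 FPKM. The chaperones Hspa8 and Hsp90ab1 had means of 2537 and 2386 FPKM. Pkm at 2255 FPKM and Eno1 at 2098 FPKM added further glycolytic enzymes, and Tubb5 at 2168 FPKM a tubulin. The other genes among the 30 highest were mostly ribosomal proteins, beside Pabpc1 at 1986 FPKM, the lysosomal membrane protein Laptm5 at 1890 FPKM, the MHC class I gene H2-K1 at 1761 FPKM and the actin regulator Coro1a at 1730 FPKM. With principal transcript lengths Eef1a1 kept rank 1 and Rplp0 rank 3, while Actb took rank 7 and Pkm rank 45.

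**Figure D1:**
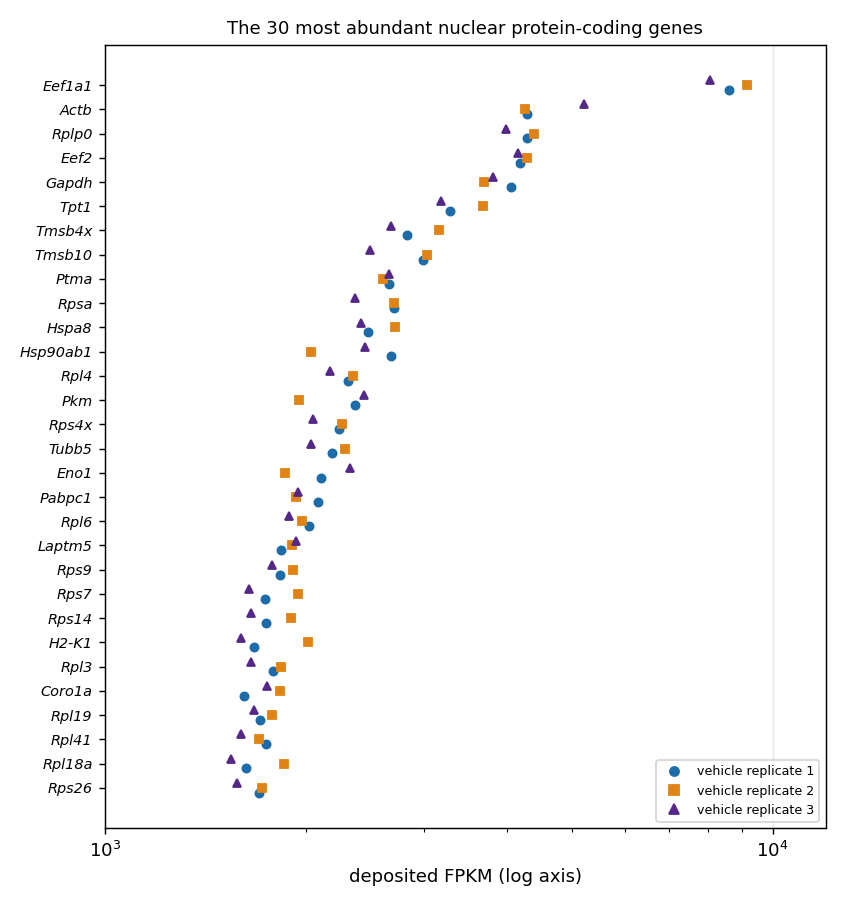
Deposited FPKM on a log axis for the 30 protein-coding nuclear genes with the highest mean, 1 symbol for each vehicle library. Eef1a1 stood apart, between 8065 and 9140 FPKM, and all 13 ribosomal protein genes drawn had their lowest value in replicate 3. Replicate 3 was the lowest library for 34.1% of the 7207 genes with at least 20 CPM in every library.

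Among entries that are not protein-coding, the highest in FPKM was Gm23935, annotated as a miRNA gene, at 5797 FPKM, followed by the T cell receptor beta diversity segment Trbd1 at 901 FPKM. Their lengths were 57 and 12 bases, which makes FPKM high for a given number of reads, and in CPM they had 330 and 10.8. The T cell receptor constant segments Trbc2 and Trac had 836 ± 64.5 and 728 ± 43.4 FPKM, or 578 and 490 CPM. The ribosomal RNA entry CT010467.1 had 719 ± 36.2 FPKM and, at 921, the highest CPM of these 5 entries. Trdc, the constant segment of the delta chain that gamma-delta T cells use, had 1.40 ± 0.284 FPKM. All 22 variable segments of the beta chain had a read, and 21 of them had one in every library. The most used, Trbv13-2, took 12.4%, 12% and 11.9% of the reads of these segments in replicates 1 to 3. Of 108 variable segments of the alpha chain 74 had a read, and the leading one, Trav7-4, took 5.14% ± 0.739. No segment of either chain held most of the reads in any library. Of 216 immunoglobulin variable segments, 4 had a read in every library.

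Reads were spread over many genes. The 10 genes with most reads took 4.52% ± 0.139 of a library, the 100 with most took 16.3% ± 0.427, and 50% of reads lay in 980 to 1028 genes. The 87 genes of cytosolic ribosomal proteins, of which 83 were expressed, took 6.76% ± 0.306 of reads. Translation factors (20 genes) took 2.54% ± 0.0557, actin cytoskeleton genes (25) took 2.09% ± 0.0657, proliferation genes (34) took 1.66% ± 0.0741 and glycolysis genes (17) took 1.52% ± 0.0954. The 13 mitochondrial mRNAs took 1.58% ± 0.0552. The 22 genes of CD4 T cell identity together took 0.939% ± 0.0496 of reads. Within the mitochondrial mRNAs, mt-Co1 stood at 5338 ± 441 FPKM and mt-Cytb at 2513 ± 113 FPKM, whereas mt-Co2, mt-Co3 and mt-Atp6, which are encoded on the same strand, stood at 45.7, 41.9 and 43.4 FPKM. How reads that match several places in the genome were counted is not stated. These values may therefore not be transcript levels, and the gap was not tested.

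**Figure D2:**
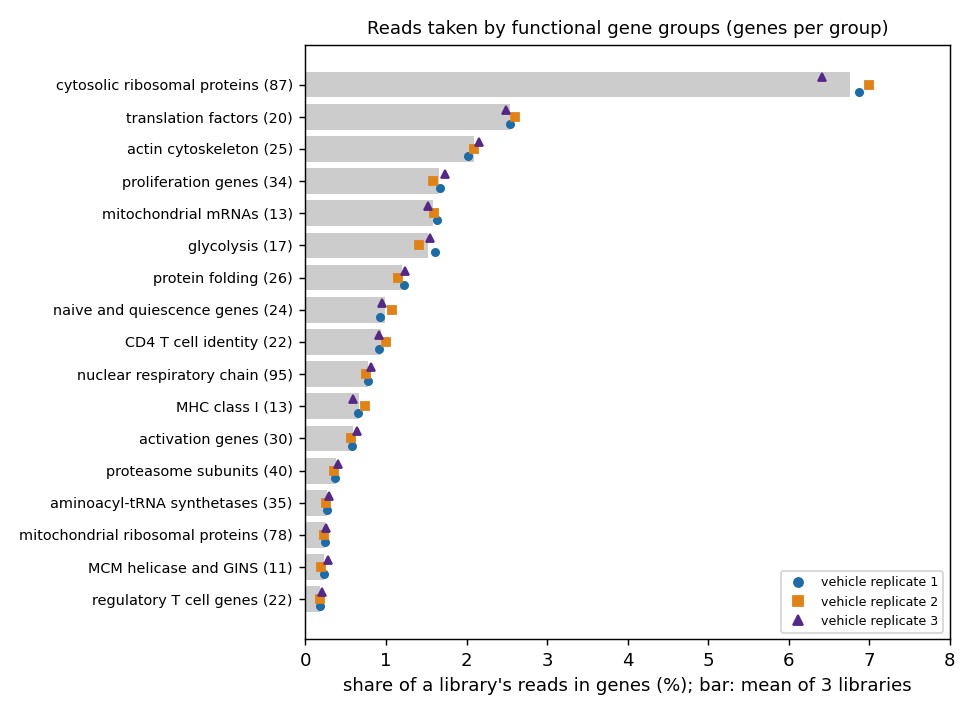
Share of each vehicle library's reads, in percent, taken by functional groups of genes, with the number of genes in brackets; bars are means of the 3 libraries and symbols the libraries. The ribosomal proteins took between 6.42% and 6.99%, more than any other group drawn.

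The start sites of the translation genes are shown because ribosomal protein genes are known for a run of pyrimidines at the transcript's first base, the 5' terminal oligopyrimidine tract through which growth signals control their translation. Promoter windows from RefSeq on GRCm38.p6, the first listed window of each gene, were found for 67 of the 87 ribosomal protein genes and for 16516 of all 22033 protein-coding nuclear genes. The search was for a C followed by at least 4 pyrimidines on the gene's strand, beginning within 3 bases of the annotated start. Such a tract was in 27 of the 67 ribosomal windows, or 40.3%, and in 11.4% of all windows. It was in 17 of the 75 windows found for the 100 most abundant genes, or 22.7%. Once ribosomal proteins were left out it was in 3 of 36, or 8.33%, a share that rests on few windows. The windows below run from 40 bases before the start to 12 bases from it, with the matched letters in capitals. They are those of the most abundant translation genes in which the search found a match, and of Rplp0 and Eef2, in which it found none. The search rests on annotated starts, which may differ from the starts used in these cells. A match or its absence therefore does not show whether a gene's transcripts begin with the tract.
Eef1a1: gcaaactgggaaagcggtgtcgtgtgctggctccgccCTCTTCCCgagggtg
Rps9: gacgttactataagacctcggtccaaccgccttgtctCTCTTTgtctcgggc
Rps18: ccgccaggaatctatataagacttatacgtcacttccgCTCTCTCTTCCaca
Rps6: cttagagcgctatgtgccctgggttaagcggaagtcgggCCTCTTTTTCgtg
Rpl18: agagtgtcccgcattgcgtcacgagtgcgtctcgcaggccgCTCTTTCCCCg
Rplp0: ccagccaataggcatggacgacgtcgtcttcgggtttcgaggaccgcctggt
Eef2: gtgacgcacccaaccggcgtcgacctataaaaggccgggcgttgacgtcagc
In order, they lie at chr9:78481713-78481764 (minus strand), chr7:3704001-3704052 (plus), chr17:33955654-33955705 (minus), chr4:86857356-86857407 (minus), chr7:45718031-45718082 (plus), chr5:115559427-115559478 (plus) and chr10:81176591-81176642 (plus). The mean levels of the ribosomal genes shown with a match were 1839 FPKM for Rps9, 1581 for Rps18, 1449 for Rps6 and 1294 for Rpl18. The GC box GGGCGG, on either strand within 100 bases before the start, was in 30.7% of the windows of the highest 100 genes, in 51.4% of those from there down to rank 1000, in 48.7% of expressed genes below rank 1000 and in 20.1% of genes under 1 FPKM. The TATA sequence TATAAA, lying whole between 40 and 16 bases before the start on the gene's strand, was in 4.75% of the windows of genes under 1 FPKM and in 0.828% of those of expressed genes below rank 1000. These are matches of letters at annotated starts and describe no binding.

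Genes of T cell identity were high throughout. All 22 genes of the CD4 T cell identity list were expressed, with a median of 279 FPKM. Besides the markers above, the list was led by Thy1 at 1218 ± 105 FPKM and the kinase Lck, which phosphorylates the CD3 chains, at 623 ± 24.1 FPKM. Zap70, the kinase recruited to those chains, stood at 271, 270 and 271 FPKM. Zbtb7b, the factor that commits thymocytes to the CD4 fate, had 106 ± 5.86 FPKM. Of the CD8 coreceptor, Cd8a had 0.719, 0.309 and 0.834 FPKM and Cd8b1 had 11.1, 12.7 and 12.5 FPKM.

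Genes of naive cells and genes of activated cells were high in the same libraries. In bulk RNA, fewer cells of a type and less RNA per cell cannot be told apart, so this does not say whether single cells held both. All 24 naive and quiescence genes were expressed, with a median of 169 FPKM. Tcf7 and Lef1, partners in the factor family that maintains naive T cells, stood at 542 ± 60.8 and 197 ± 13.9 FPKM. The lymph node homing receptor Ccr7 stood at 317 ± 4.76 FPKM. Klf2, which drives expression of the egress receptor S1pr1, had 143, 191 and 159 FPKM, and S1pr1 had 98.8, 137 and 109 FPKM, with replicate 2 highest for both. Il7r, the receptor of the survival cytokine IL-7, had 89.8, 95.3 and 69.0 FPKM. Ly6c1 varied most, at 15, 41.3 and 33.8 FPKM.

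Of the 30 activation genes 28 were expressed, with a median of 38.6 FPKM. The transferrin receptor Tfrc led them at 804, 771 and 850 FPKM, and the costimulatory receptors Tnfrsf18 and Tnfrsf4 had 266 ± 19.5 and 239 ± 34.3 FPKM. The inhibitory receptor Ctla4 had 272 ± 15.8 FPKM, above Cd28 at 190 ± 9.36 FPKM. Markers that rise within hours of stimulation or on memory cells were lower, with Cd69 at 30.9 ± 1.89 FPKM and Cd44 at 19.4 ± 1.65 FPKM. Pdcd1, which encodes PD-1, had 4.11 ± 0.930 FPKM, and Havcr2, which encodes TIM-3, had 3 reads in all. The 34 proliferation genes were all expressed, with a median of 208 FPKM. Top2a, the topoisomerase of dividing cells, had 1208, 1214 and 1205 FPKM, and Mki67 had 276, 235 and 266 FPKM. Myc stood at 82.2 ± 4.70 FPKM.

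**Figure D3:**
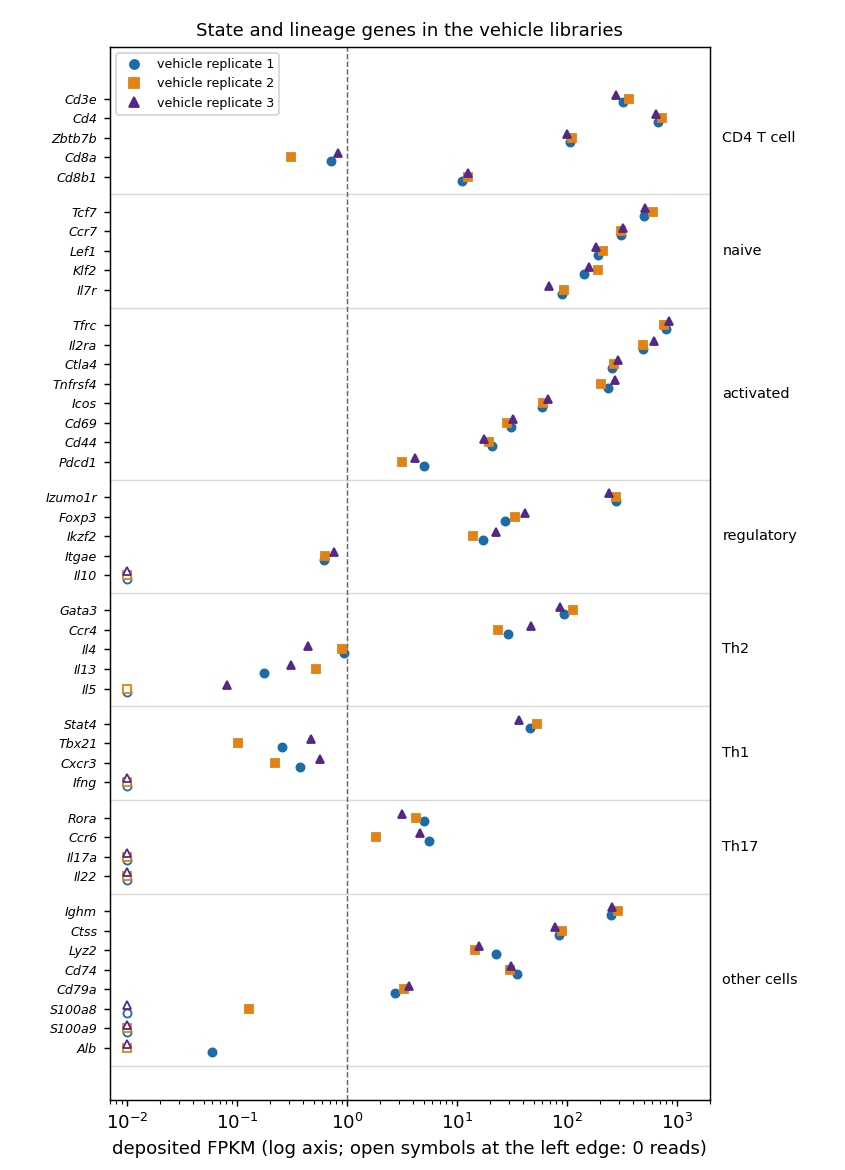
Deposited FPKM on a log axis for genes of T cell states, helper lineages and other cells, 1 symbol for each vehicle library; the dashed line marks 1 FPKM and open symbols at the left edge mark 0 reads. Naive and activated genes lay between 3.14 and 850 FPKM, while Ifng, Il17a, Il22 and Il10 had no read in any library.

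Regulatory T cell genes were partly present. Of 22 listed, 17 were expressed, with a median of 15.5 FPKM. The list was led by Ctla4, Tnfrsf18 and Izumo1r, a folate receptor family protein, at 267 ± 23.1 FPKM, and by Tgfb1, the ligand TGF-beta 1, at 156 ± 15.8 FPKM. Closer to Foxp3 in level were Ikzf4 at 43.0 ± 4.87 FPKM, Lrrc32, the surface anchor of latent TGF-beta, at 39.7 ± 8.42 FPKM, and Ikzf2, which encodes Helios, at 18 ± 4.49 FPKM. Nrp1 had 5.27 ± 1.91 FPKM, Itgae had 0.670 ± 0.0801 FPKM, and Il10 had no read. Foxp3, Lrrc32, Ikzf2 and Nrp1, which were picked from the list, were each highest in replicate 3. How many of the other listed genes were highest there is not given here. Replicate 3 was also the highest library for 41.8% of the 7207 genes with at least 20 CPM in every library. Of 11 listed regulatory genes at that level, 3 (27.3%) were highest in replicate 3 and lowest in replicate 2. Among the 7207 genes that share was 26.6%.

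The lists of effector lineage genes were each expressed in part. Of 16 Th1 genes 11 (68.75%) were expressed, of 16 Th2 genes 7 (43.75%) and of 16 Th17 genes 9 (56.25%). The share over all protein-coding nuclear genes was 48.6%. The medians of the 3 lists were 3.76, 0.758 and 3.0 FPKM. The STAT factors that receive the polarising cytokines were present, with Stat6 at 208 ± 7.05 FPKM, Stat3 at 150 ± 4.02 FPKM and Stat4 at 45.4 ± 8.21 FPKM. Tbx21, which encodes the Th1 factor T-bet, had 12, 4 and 19 reads, or 0.279 ± 0.187 FPKM. Rora, an orphan nuclear receptor expressed in Th17 cells, had 4.15 ± 0.919 FPKM. Bcl6, the factor of follicular helper cells, had 3.95 ± 0.611 FPKM, and Cxcr5, their homing receptor, had 2.06 ± 0.452 FPKM.

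Of 44 cytokine and chemokine genes 20 were expressed and 8 had no read in any library: Ifng, Il17a, Il22, Il10, Il9, Xcl1, Ccl1 and Ccl20. Il4 had 10, 8 and 4 reads, Il13 had 20 reads and Il5 had 2 in all. The cytokine transcripts that were abundant were Ltb, the membrane lymphotoxin, at 490, 510 and 592 FPKM, and Mif at 442, 355 and 433 FPKM. Tgfb1 followed, then Lta at 100 ± 20.7 FPKM, Tnfsf8 at 67.6 ± 1.12 FPKM and Il16 at 57.4 ± 6.84 FPKM. Tnf had 19.4 ± 4.04 FPKM. Il2 itself had 3.56 ± 0.944 FPKM, in cultures that were given IL-2.

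Most markers of other cells were low, and the lists differed in how many members were expressed. The 19 B cell markers summed to 460 to 514 CPM over the libraries and 11 were expressed. Most of that sum was Ighm, the constant region of IgM, at 251, 290 and 256 FPKM, while Igkc, the kappa light chain, had 9.85 ± 2.02 FPKM and the B cell receptor gene Cd79a had 3.25 ± 0.477 FPKM. The 20 macrophage and monocyte markers summed to 158 to 181 CPM and 6 were expressed, led by the protease Ctss at 85.1 ± 6.15 FPKM and Lyz2 at 17.8 ± 4.38 FPKM. The 18 neutrophil markers summed to 3.81 to 4.92 CPM, with 1 expressed and no read for S100a9, Camp, Ngp, Ly6g and Retnlg. Of 16 dendritic cell and MHC class II markers 8 were expressed, summing to 232 to 255 CPM, among them H2-DMa at 60.5 ± 2.27 FPKM and Cd74 at 32.4 ± 2.58 FPKM, while Siglech and Cd209a had no read.

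Natural killer cell markers summed to 6.64 to 8.33 CPM with 2 of 13 expressed, and cytotoxic and CD8 markers summed to 65.5 to 68.1 CPM with 8 of 16 expressed. Among the latter, Gzmb stood at 13 ± 1.81 FPKM, Prf1, which encodes perforin, at 1.23 ± 0.509 FPKM and Nkg7 at 3.06 ± 0.395 FPKM. None of 10 erythroid markers was expressed, and 1 of 16 genes of distant tissues was. Of 15 stromal, endothelial and epithelial markers 3 were expressed, and Pecam1, an adhesion receptor that leukocytes also carry, led them at 104 ± 17.7 FPKM. Gata1, the erythroid and megakaryocyte factor, had 553, 586 and 525 reads, or 33.3 ± 3.93 FPKM, and its cofactor Zfpm1 had 74.9 ± 7.87 FPKM. Gata1 was singled out after its values were seen. How counting used strand is not stated, so reads of overlapping genes cannot be told apart. The part that other cells played in any of these levels was not tested.

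Of 1469 genes that the deposited table assigns to a transcription factor family, 772 were expressed, or 52.6%, and 54 were at 100 FPKM or more. All 10 E2F genes, all 9 IRF genes and all 9 methyl-CpG-binding genes were expressed, as were 379 of 576 zinc finger genes of the C2H2 class. By contrast 21 of 232 homeobox genes, 13 of 44 forkhead genes and 35 of 100 basic helix-loop-helix genes were expressed. The highest were Ybx1 at 792 ± 120 FPKM, the chromatin proteins Hmgb2 at 788 ± 19.5 FPKM and Hmgb1 at 476 ± 31.7 FPKM, and the lymphoid factors Ets1 at 589 ± 64.0 FPKM, Tcf7 and Ikzf1 at 353 ± 26.0 FPKM. Gene families grouped by symbol ran from silent to nearly complete. Of 1093 olfactory receptors 1 was expressed, of 40 Hox genes 0, and of 331 vomeronasal receptors 1. Of 394 Zfp genes 298 were expressed, and of 369 solute carriers 176, or 47.7%.

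Families of related proteins differed in how far the leading member, the one with the highest mean, lay above the next. In 43 of 45 families the leading member lay above the next in every library, and in 40 the ranges over the libraries did not overlap. The leader was at least 10 times the next in 10 families and under 2 times the next in 17, and in 8 families another member led in CPM. In 31 families the leader was the same, and above the next in every library, with the deposited gene length, the length behind the FPKM and the principal transcript length. The families named in the next paragraph are among these 31 unless said otherwise.

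Among glycolytic isoforms the lead was wide in some families and narrow in another. Hk1 at 210, 195 and 223 FPKM led Hk2 at 30.1, 30.2 and 29.4 FPKM. Aldoa at 1309 ± 143 FPKM led Aldoc at 38.7 ± 11.1 FPKM, Ldha at 1411 ± 192 FPKM led Ldhb at 90.9 ± 25.9 FPKM, and Pkm was expressed with no read for the liver gene Pklr. Of the phosphofructokinases, Pfkl at 202 ± 23.2 FPKM was 1.28 times Pfkp at 158 ± 16.8 FPKM and held 51.3% of the family's summed FPKM, while Pfkp led in CPM. Among kinases, Jak1 at 607 ± 22.7 FPKM led Jak3 at 104 ± 21.2 FPKM and Jak2 at 63.6 ± 1.13 FPKM, and Tyk2 was lowest at 28.1 ± 3.44 FPKM. Lck led Fyn at 234 ± 3.99 FPKM, while the other 6 SRC family kinases were at or below 1.24 FPKM on average. Pik3cd, a PI3K catalytic subunit of leukocytes, had 441 ± 37 FPKM against 21.4 ± 0.931 FPKM for Pik3ca and 4.20 ± 0.40 FPKM for Pik3cb. Pik3cg lay between Pik3ca and Pik3cb. Tgfb1 was 390 times the next TGF-beta ligand, Tgfb3. Ccr7 led the CC chemokine receptors, followed by Ccr4 at 29.3, 23.5 and 47.1 FPKM, and Cxcr4 at 46.4 ± 6.71 FPKM led the CXC receptors, among which Cxcr3 had 0.389 ± 0.177 FPKM. Mcl1 at 347 ± 23.8 FPKM led Bcl2 at 126 ± 4.31 FPKM and Bcl2l1 at 88.3 ± 17.8 FPKM.

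In other families the lead was narrow or depended on the scale used. The glucose transporter Slc2a3 had 174, 176 and 97.4 FPKM and Slc2a1 had 74.4, 83.7 and 86.7 FPKM. Slc2a3 was above Slc2a1 in every library, but by little in replicate 3. Among STAT genes Stat6 led on the deposited scale but Stat5b, at 90.8 ± 10.2 FPKM, had the most reads. Of the IL-2 receptor, Il2ra was above Il2rb at 319, 306 and 366 FPKM and Il2rg at 268, 296 and 271 FPKM, yet with principal transcript lengths Il2ra and Il2rb both averaged 240. With those lengths the leaders of the D-type cyclins, the CIP and INK inhibitors, the SOCS proteins and the peroxiredoxins changed.

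The 3 libraries differed from each other by more than counting error. The common biological coefficient of variation, the spread beyond counting noise estimated by edgeR over 11981 genes, was 0.132. For genes at 20 to 100 CPM the median coefficient of variation of CPM was 8.93%, against 3.63% from counting alone. For the 259 genes above 500 CPM the corresponding values were 6.33% and 0.878%. Among 7207 genes with at least 20 CPM in every library, the log2 difference between libraries had an SD of 0.18 for replicates 1 and 2, 0.21 for replicates 1 and 3 and 0.26 for replicates 2 and 3. More than 1.5-fold apart were 43, 81 and 230 genes for these pairs. Replicate 3 was the library farthest from the other pair for 42.8% of genes, replicate 2 for 36.5% and replicate 1 for 20.7%.

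The spread of single genes was ranked by edgeR's estimate for each gene, which is drawn towards that of genes of like abundance. Among the 12 lowest were Ptma, Top2a, Eef2, Actg1, Rpl8, Vim, Ddx17, Tpm3, Eif4b, Ncl and Hmgb2. These 12 differed little, from 0.0795 to 0.0806, and the ranking is not that of the plain SD. Ccnb2, outside the 12, had 138 ± 0.813 FPKM, and Ncl had 346 ± 9.62 FPKM. Actg1 had 1167, 1165 and 1166 FPKM. By edgeR's estimate the most variable of the 7399 protein-coding genes that averaged 20 CPM or more was Hspa1b. This inducible heat shock chaperone had 14.7, 22.0 and 1.86 FPKM. Its neighbour and near-identical copy Hspa1a had 5.60, 6.76 and 0.985 FPKM, so replicate 3 was low for both, and reads may be split between them. Next were Lad1 at 38.0, 19.5 and 65.2 FPKM, Zfp385a, Ptpn14, Notch3, Slco4a1, Mcam, Lrp1, Utp20, Tnfsf4, Itga7 and Cd7. Tnfsf4, which encodes the OX40 ligand, had 20.6, 11.6 and 32.7 FPKM. Of these 12 genes, chosen for their spread, 7 were highest in replicate 3 and lowest in replicate 2, and 3 were lowest in replicate 3.

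That order among the libraries, replicate 3 highest and replicate 2 lowest, was shown by 26.6% of the 7207 genes, and the opposite order by 21.6%. The first order was shown by 27 of 36 proteasome subunit genes (75%), by 8 of 10 genes of the MCM helicase and its GINS and Cdc45 partners, by 11 of 16 nucleolar genes and by 16 of 28 aminoacyl-tRNA synthetase genes (57.1%). The MCM and GINS group lay 0.18 above its mean in replicate 3 and -0.20 from it in replicate 2, on the log2(CPM + 1) scale. Odc1, the rate-limiting enzyme of polyamine synthesis, had 191, 130 and 277 FPKM. The cytosolic ribosomal protein genes showed the opposite order, with 43 of 80 (53.8%) highest in replicate 2 and lowest in replicate 3, and 6 of 80 the reverse. MHC class I genes did likewise, with 8 of 13 (61.5%), and CD4 T cell identity genes with 10 of 22 (45.5%). Zfp36 had 31.5, 41.8 and 19.1 FPKM and Nr4a1 had 49.4, 45.6 and 26.5 FPKM, both lowest in replicate 3. Other early response genes were mixed. Egr1 at 9.98, 8.65 and 6.33 FPKM and Egr2 at 2.88, 3.43 and 1.43 FPKM were also lowest in replicate 3. Fosb and Fosl2 shared this. Btg2 at 76.2, 78.7 and 86.7 FPKM and Fos at 9.08, 11.2 and 9.62 FPKM did not. Egr3, Fosl1 and Atf3 were not lowest in replicate 3 either. Odc1, Zfp36 and Nr4a1 were taken from the genes farthest apart between replicates 3 and 2. These groups and genes were chosen with the pattern already seen, and no test was made of it.

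**Figure D4:**
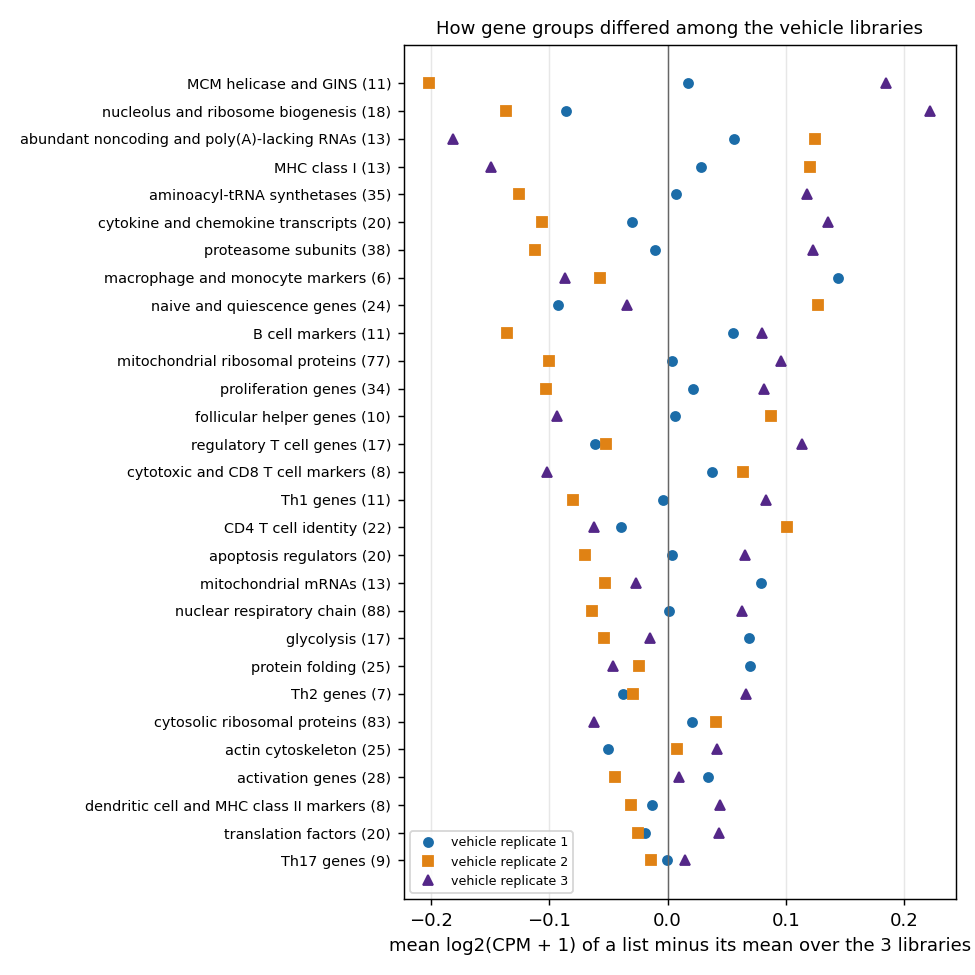
For each gene group, the mean over its expressed members of log2(CPM + 1) minus the mean of the 3 libraries, 1 symbol for each vehicle library; the number of members is in brackets and groups are ordered by their range. Replicates 2 and 3 lay at opposite ends for the MCM and GINS genes, at -0.20 and 0.18, and for MHC class I genes, at 0.12 and -0.15.

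Sex-linked transcripts were alike in the libraries. Xist, the RNA that silences an X chromosome in female cells, had 5, 1 and 3 reads, and 4 Y-linked genes together had 417, 447 and 415 CPM.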

How the data were processed

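Bulk RNA was sequenced from naive CD4 T cells after 72 h in culture; per the labels' protocols, an RNeasy kit purified the RNA and library preparation was Illumina's standard one. The authors deposited raw read counts per gene and FPKM, in which each count is scaled by a length and by the sum of counts of that library. STAR, DESeq2 and the build mm9 are named, without versions, in the submitters' processing notes. The sources used here do not give the counting program, annotation release or use of strand. Of 54409 genes also in GENCODE M21, 98.3% had its GRCm38 position, so coordinates are those of GRCm38. A further deposited count table held identical vehicle values. The 3 FPKM columns of treated cells were not used.

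From these, CPM were counts scaled to library totals. FPKM was used as deposited, and as an alternative counts were divided by the principal (APPRIS) transcript length in GENCODE M21. The spread was estimated with edgeR 4.0.16 in R 4.3.3 (TMM factors, intercept only, genes with at least 1 CPM in all 3 libraries), with DESeq2 1.42.0 as an alternative, and the script was checked on simulated counts. Summaries used Python 3.11.15 with pandas 2.3.3. No hypothesis test was made, since there is 1 group. Of 830 listed symbols in 79 lists, 825 were matched; read-share groups were picked by symbol. Genes were named by rule: the markers, the 30 highest protein-coding nuclear genes with a deposited length of at least 300 bases and the 5 highest others, list members at the top and near 0, family members by order, the 15 highest of each of 3 class lists (transcription factors, surface receptors, secreted factors), and the 12 steadiest and 12 most variable; some of these are not reported here. Also named were genes from the 15 at each end of the log2 difference between replicates 3 and 2. The libraries, lists and groups were chosen with earlier results of these data known. Totals of 15657622 to 18655997 reads set the precision, and floors cover counting error only. Of the lists not described in the report, mast cell, basophil and eosinophil markers had 4 of 10 expressed, platelet markers 1 of 8, and follicular helper genes 10 of 12.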

Additional observations from a re-analysis of the deposited data

How the results depend on the processing

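No paired analysis was possible because the results come from 1 group and from no test. The number of expressed genes lay between 11219 (at least 2 FPKM) and 14225 (at least 0.5 FPKM), and between 12549 and 12707 with 1 library left out. The share of reads in the 100 leading genes was 15.8% over protein-coding nuclear genes alone and 16.1% to 16.6% with 1 library left out. The coefficient of variation of 0.132 ranged from 0.108 without replicate 3 to 0.159 without replicate 1. The median SD of log2(FPKM + 1) was 0.15, and 0.10 to 0.14 with 1 library left out. The families with a leader above the next in every library numbered 41 by CPM, 38 with the deposited gene length and 37 with principal transcripts, an alternative chosen after seeing the data, as was the ratio that follows. The log2 ratio of Gata3 to Foxp3 was 1.52 in FPKM and turned to -0.50 in CPM, -0.49 with the deposited gene length and -0.24 with principal transcripts, and it was 1.39 to 1.77 with 1 library left out. Replicate 3 was above replicate 2 in 15 of 23 lists under library totals, TMM factors and a pseudocount of 0.1 alike. Levels of genes with few reads, such as Tbx21, are limited by depth.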
